A study of Mus musculus with 6 samples.

Results

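Semaphorins, plexins, ephrins and Eph receptors pass guidance signals between neighbouring cells. Class 3 semaphorins are secreted, and most of them bind a neuropilin that is paired with a plexin, while membrane semaphorins such as Sema4d bind plexins directly. Ephrin-B ligands and EphB receptors both span the membrane and signal into both of the touching cells. In mouse bone, Sema3a is known to favour osteoblasts and restrain osteoclasts, Sema4d is known as an osteoclast product that restrains osteoblasts through Plxnb1, and Efnb2 and Ephb4 link osteoclasts with osteoblasts and also mark arteries and veins.

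The 10 genes described here were chosen by name: the ligands Sema3a, Sema3b, Sema3c, Sema3e, Sema4d and Efnb2, and the receptors Plxna1, Plxnb1, Plxnd1 and Ephb4. All 10 were found among 55421 gene rows, and all 10 were among the 18838 genes that passed the filter on low counts. Counts came from 3 phlebotomy libraries (blood was removed) and 3 control libraries of femur, from C57BL/6 mice labelled WT at 12 weeks of age. The sources used here give neither the volume of blood removed nor the time from bleeding to sampling. The bone fraction is one enriched for osteocytes, the cells buried in bone matrix. All 10 osteocyte markers had counts, and so did markers of marrow and vessel cells, so the fraction is a mixture. In such bulk samples fewer cells of a type and less RNA per cell cannot be told apart.

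The libraries are called by treatment and by the number in the deposited column name (1, 2 and 4). Columns with the initial P were taken as phlebotomy and those with N, by elimination, as control, which limits every comparison. Whether each library is a separate mouse is not in the labels, so a p-value here reflects library-to-library spread, which may be technical. Totals of gene counts ran from 14853290 to 15866385 in phlebotomy and from 11219243 to 19015588 in control libraries, so that 3 counts correspond to 0.158 to 0.267 CPM (counts scaled to a common library total). Levels below are CPM scaled with TMM factors, and fold changes are phlebotomy over control on the log2 scale with a standard error (SE). Phlebotomy 2 stood apart from phlebotomy 1 and 4 on the first principal component of all genes (40.3% of variance). It lay at 7.95 against -57.7 and -44.4, with controls from 19.2 to 55.3. Results are therefore also given without it where a call depends on it. Of the phlebotomy libraries it lay nearest the controls, so leaving it out widens group differences in general. EdgeR then called 1.75% of all genes higher and 2.99% lower, against 0.0159% and 0% with all 6 libraries. A call made only without phlebotomy 2 is thus a description and no independent support.

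None of the 10 genes passed the threshold of 0.05 in edgeR's quasi-likelihood test adjusted over all genes. Sema3a and Sema3c were higher and the other 8 lower in the phlebotomy libraries, where 49.8% of all tested genes were higher and 50.2% lower. The groups did not overlap for 2 genes on the higher side, Sema3a and Sema3c, against 10.1% of all genes, and for 4 on the lower side, Sema4d, Plxna1, Plxnd1 and Ephb4, against 11.2%. At an unadjusted p under 0.05 edgeR gave 1 higher gene (all genes 7.01%) and 4 lower ones (all genes 9.42%). The median log2 fold change of the 10 was -0.39, beside -0.0028 for all genes tested. It was -0.19 without phlebotomy 1 and -0.51 without phlebotomy 2. The number lower at an unadjusted p under 0.05 was 1 without phlebotomy 1 or without control 1, and 2 without phlebotomy 4. In edgeR, adjusted calls came to 0.0159% of genes on the higher side and 0% on the lower side. DESeq2 called 1 of the 10, Sema3a, higher, where it called 0.414% of all genes higher and 1.09% lower. In edgeR without phlebotomy 2, Sema3a passed higher and Sema3b and Sema4d lower, against 1.75% and 2.99% of all genes. limma-voom called 0 of the 10, with 1 higher and 4 lower at an unadjusted p under 0.05 (all genes 6.27% and 9.58%). Without the low-count filter edgeR called Sema3b lower, where it called 0.357% of genes higher and 0.884% lower.

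**Figure D1:**
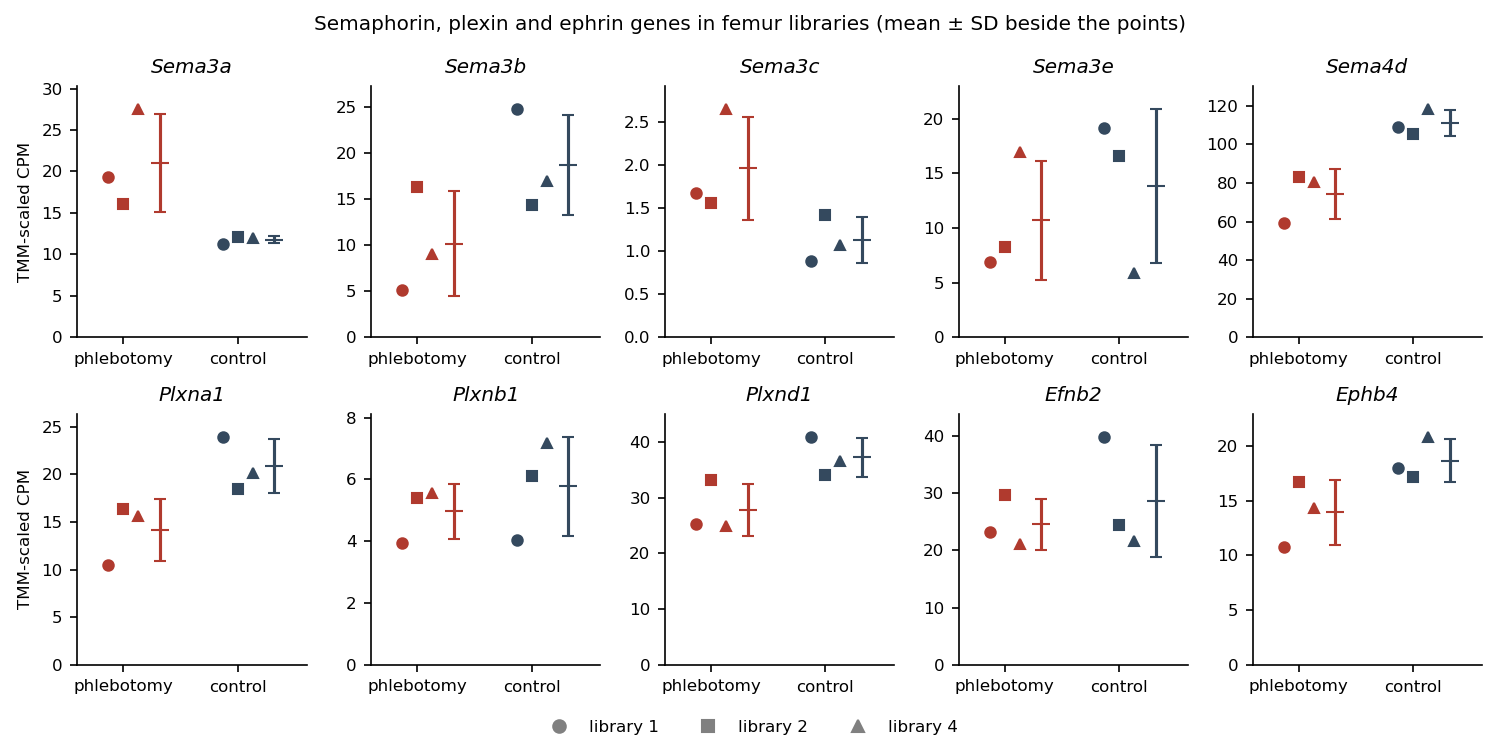
TMM-scaled CPM of the 10 genes in each phlebotomy (left) and control (right) library, with symbols for the library number and the mean ± SD of 3 libraries beside the points. Sema3a lies above 16 CPM in every phlebotomy library and at or below 12.1 CPM in every control library, and Sema4d lies lower in every phlebotomy library.

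Transcript length and GC content bore unequally on the 10 genes. After a lowess trend on both was removed from each library, the median of the 10 genes was -0.094, 7 of 10 were lower and edgeR called 0 (all genes 0.0106% higher and 0% lower). The 4 receptors moved most. Plxnd1, with the highest GC content of the 10 (60.8% of its longest transcript), had a log2 fold change of -0.42 ± 0.18 as counted and -0.0079 ± 0.15 with the trend removed (SE). In that fit Plxnb1 had 0.097, Ephb4 -0.12, Plxna1 -0.24 and Efnb2 -0.066. Sema3a, with the lowest GC content (40.8%), kept a log2 fold change of 0.83 ± 0.19 (SE, edgeR adjusted p 0.226). Sema3b had -0.72 and Sema4d -0.41. What made the trend was not tested.

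**Figure D2:**
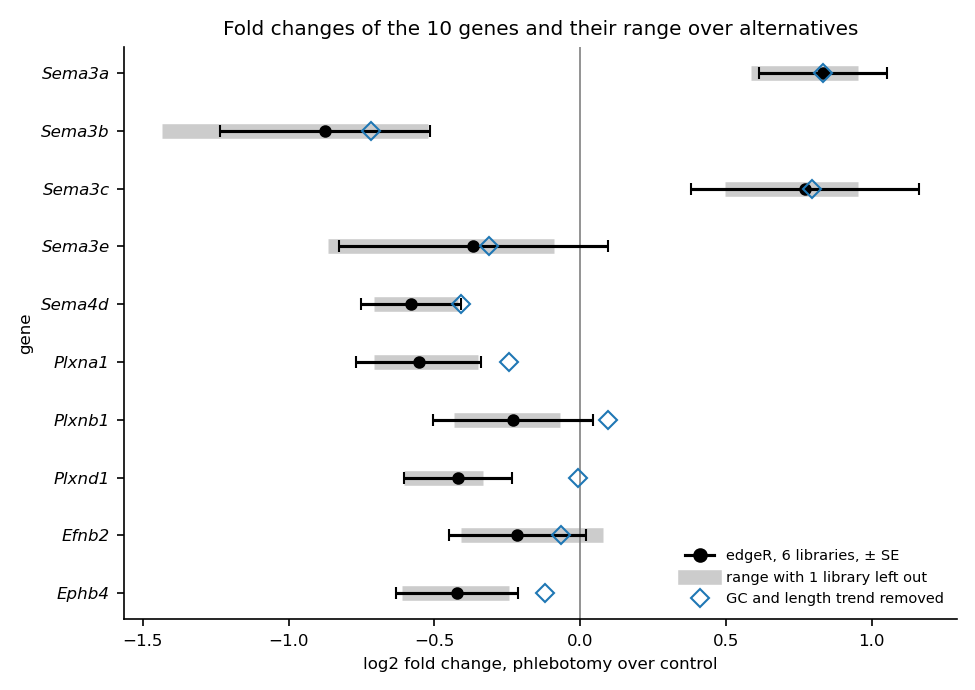
Log2 fold change (phlebotomy over control) of each gene in edgeR over 6 libraries with its SE (black), the range when 1 library is left out (grey bars) and the value with the GC and length trend removed (open diamonds). Sema3a and Sema3c stay above 0 in every fit shown, while the diamonds of Plxnd1, Efnb2 and Ephb4 lie near 0 and that of Plxnb1 above it.

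Among the secreted ligands, Sema3a (ENSMUSG00000028883, protein-coding, chr5:13125414-13602565 on GRCm38, plus strand) had 19.3, 16.1 and 27.6 CPM in phlebotomy 1, 2 and 4, against 11.2, 12.1 and 12.0 CPM in control 1, 2 and 4. Every phlebotomy library was above every control library, and phlebotomy 4 was the highest. The 3 controls differed by under 1 CPM, so the spread lay in the phlebotomy group. The log2 fold change was 0.83 ± 0.22 (SE), a 1.78-fold difference, with an unadjusted p of 0.00186 and an edgeR adjusted p of 0.160. DESeq2 gave 0.84 with an adjusted p of 0.0368. Without phlebotomy 2 the edgeR value was 0.95 ± 0.22 (SE, adjusted p 0.0352). With 1 library left out the log2 fold change ran from 0.59 to 0.95, and over 18 alternatives the adjusted p ran from 0.0352 to 0.613. Sema3a is also made by neurons, and the summed level of 9 Schwann and nerve markers was 33.9 to 38.6 CPM in phlebotomy and 31.2 to 36.9 CPM in control libraries. Of these markers 6 averaged under 3 CPM. The largest part of the sum was Mbp, at 21.9 CPM on average in phlebotomy and 20.2 CPM in control libraries. The neuron markers Th, Prph and Nefl held at most 14 counts a library, so the sum says little about neurons. The 10 osteoblast markers summed to 36310 to 63711 CPM in phlebotomy and 62361 to 95228 CPM in control libraries, and the groups overlapped. All 10 had negative log2 fold changes (median -0.50), and their part in the result was not tested.

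Sema3e (ENSMUSG00000063531, chr5:14025276-14256689, plus strand), which binds Plxnd1 without a neuropilin and is known for patterning vessels, is the next class 3 gene downstream of Sema3a, 422711 bases on with 1 protein-coding gene between them. It did not share the pattern of Sema3a. Its level was 6.89, 8.27 and 16.9 CPM in phlebotomy 1, 2 and 4 and 19.1, 16.6 and 5.85 CPM in control 1, 2 and 4. The groups overlapped throughout, since control 4 was the lowest of the 6 and phlebotomy 4 exceeded control 2. The log2 fold change was -0.37 ± 0.46 (SE, edgeR adjusted p 0.719), and with 1 library left out it ran from -0.86 to -0.089. Sema3d, upstream of Sema3a in the same stretch of chromosome 5 with 0 protein-coding genes between them, had 94.3, 182 and 194 CPM in phlebotomy 1, 2 and 4 and 390, 323 and 166 CPM in control 1, 2 and 4. The 2 groups of Sema3d overlapped (log2 fold change -0.90 ± 0.33 SE; adjusted p 0.241 in edgeR). Control 1 was the highest library for Sema3d and Sema3e alike, and phlebotomy 1 and control 4 were among their 3 lowest.

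The upstream sequences of Sema3a and Sema3e are shown because these neighbours had different patterns. Each is the 250 bases before the RefSeq start (GRCm38.p6), read 5′ to 3′ on the plus strand, at chr5:13396534-13396783 for Sema3a and chr5:14025026-14025275 for Sema3e. The Sema3a start used by RefSeq lies inside the longer GENCODE gene. Capitals mark matches, on either strand, to a set of 4 short motifs, and no matches overlap. The TATA box was searched as TATAAA. For the GC box, bound by Sp1, the letters were GGGCGG. A RUNX site was taken as TGTGGT. The core of the hypoxia response element was searched as ACGTG.
Sema3a: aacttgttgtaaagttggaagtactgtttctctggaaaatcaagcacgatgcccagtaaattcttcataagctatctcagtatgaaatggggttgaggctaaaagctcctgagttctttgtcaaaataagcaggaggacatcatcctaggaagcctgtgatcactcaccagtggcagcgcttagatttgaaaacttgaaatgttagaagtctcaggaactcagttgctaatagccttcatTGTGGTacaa
Sema3e: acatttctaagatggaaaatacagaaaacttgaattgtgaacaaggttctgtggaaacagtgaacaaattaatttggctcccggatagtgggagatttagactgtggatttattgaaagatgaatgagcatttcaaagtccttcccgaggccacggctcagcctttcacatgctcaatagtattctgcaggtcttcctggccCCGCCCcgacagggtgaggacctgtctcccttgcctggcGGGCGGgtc
The Sema3a window has a GC content of 40.8% with 2 CG dinucleotides and 1 RUNX match, and the Sema3e window 48.0% with 7 CG dinucleotides and 2 GC boxes. Among 32851 RefSeq windows of this length, 14.0% hold the RUNX letters, 32.7% a GC box, 12.4% a TATA box and 16.6% the hypoxia core, and the median has 6 CG dinucleotides. Neither window holds TATAAA or ACGTG, which says only that these letters are not in these bases. RefSeq windows were found for 8 of the 10 genes, and none for Sema3b or Plxna1. The sequences found for Sema3c, Sema4d, Plxnb1 and Efnb2 are not shown.

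Sema3b (ENSMUSG00000057969, chr9:107597674-107609229, minus strand) is induced by vitamin D in mouse osteoblasts. It had 5.09, 16.4 and 9.10 CPM in phlebotomy 1, 2 and 4, against 24.9, 14.4 and 17.0 CPM in control 1, 2 and 4. The groups overlapped because phlebotomy 2 lay above control 2. The log2 fold change was -0.88 ± 0.36 (SE, edgeR adjusted p 0.265), and it was -1.43 ± 0.30 (SE, adjusted p 0.0319) without phlebotomy 2 and -0.52 without phlebotomy 1. Of 10367 named genes with at least 5 CPM, the one whose centred log2 levels over the 6 libraries differed least from those of Sema3b was the collagen gene Col1a2, with a root mean square difference of 0.12. Summed osteoblast markers, which include Col1a2, were likewise lowest in phlebotomy 1 and highest in control 1. Sema3f, a ligand of neuropilin-2 whose gene lies 72271 bases from Sema3b, had 10.8, 17.2 and 9.86 CPM in phlebotomy libraries and 23.5, 20.1 and 20.1 CPM in controls. It did not overlap between groups (log2 fold change -0.75 ± 0.23 SE, edgeR adjusted p 0.182, and 0.0266 without phlebotomy 2).

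Sema3c (ENSMUSG00000028780, chr5:17574281-17730268), a ligand known from heart outflow and vessel development, was the least abundant of the 10. Its raw counts were 28, 24 and 42 in phlebotomy 1, 2 and 4 and 9, 26 and 16 in control 1, 2 and 4. As levels these are 1.68, 1.56 and 2.65 CPM after phlebotomy and 0.888, 1.42 and 1.08 CPM in controls. The groups were separated by 0.143 CPM, less than 3 counts are worth in any library (log2 fold change 0.77 ± 0.39 SE, edgeR adjusted p 0.340). Genes at this level were higher after phlebotomy in general. Of the 5913 tested genes averaging under 3 CPM 67.1% were higher (median 0.24 on the log2 scale), against 41.9% of the 12925 genes above that level. Olfactory and vomeronasal receptors, 1415 genes that bone is not known to use, summed to 203, 119 and 304 CPM in phlebotomy 1, 2 and 4 and to 106, 109 and 98.1 CPM in control 1, 2 and 4. The order of the phlebotomy libraries was the same for Sema3c, for Sema3a and for this sum. Sema3a and Sema3c also shared the order of all 6 libraries. The part of background in the differences of these genes was not tested.

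Sema4d (ENSMUSG00000021451, chr13:51685529-51793747, minus strand), the membrane ligand, was the most abundant of the 10 per length of transcript. It had 59.1, 83.0 and 80.5 CPM in phlebotomy 1, 2 and 4, against 109, 105 and 118 CPM in control 1, 2 and 4. The groups were 22.3 CPM apart, and phlebotomy 1 was the lowest library. The log2 fold change was -0.58 ± 0.17 (SE, unadjusted p 0.00436, edgeR adjusted p 0.178), and the only alternative of 18 that called it was edgeR without phlebotomy 2 (-0.71 ± 0.19 SE, adjusted p 0.0495). Sema4d is expressed by T and B cells, platelets and osteoclasts besides other cells. Summed T cell markers (6 genes, 4 averaging under 3 CPM) were at 13.9 to 15.6 CPM in phlebotomy and 17.0 to 21.8 CPM in control libraries, and so did not overlap. B cell markers (6 of 7 with counts) lay at 163 to 239 CPM after phlebotomy and 212 to 275 CPM in controls. Osteoclast markers (8 of 8 with counts) lay at 1130 to 3204 CPM in phlebotomy and 1052 to 2301 CPM in control libraries, and those of megakaryocytes and platelets (7 of 7) at 892 to 1335 and 888 to 1603 CPM. Log2 fold changes were positive for 8 of 8 osteoclast markers (median 0.44), 0 of them at an unadjusted edgeR p under 0.05. They were negative for 6 of 6 T cell, 5 of 6 B cell and 6 of 7 megakaryocyte and platelet markers. The part of these cells in the Sema4d difference was not tested.

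Plxna1 (ENSMUSG00000030084, chr6:89316314-89362620, minus strand), a signalling partner of neuropilins, had 10.5, 16.4 and 15.7 CPM in phlebotomy 1, 2 and 4, against 24.0, 18.4 and 20.2 CPM in control 1, 2 and 4. All phlebotomy libraries were below all controls, by 2.06 CPM at the closest (log2 fold change -0.55 ± 0.21 SE, edgeR adjusted p 0.239). Its exons share 970 bases with the antisense gene Gm26811, which held 5 to 32 counts a library, and without strand the reads of the shared stretch cannot be assigned. Plxnd1 (ENSMUSG00000030123, chr6:115954811-115995005, minus strand), the vascular receptor of Sema3e, had 25.3, 33.2 and 24.8 CPM in phlebotomy 1, 2 and 4, against 40.9, 34.1 and 36.6 CPM in controls. The groups were 0.874 CPM apart, with phlebotomy 2 beside control 2 (log2 fold change -0.42 ± 0.18 SE, edgeR adjusted p 0.279). Plxnb1 (ENSMUSG00000053646, chr9:109095389-109119917, plus strand), the receptor of Sema4d on osteoblasts, had 3.95, 5.41 and 5.56 CPM after phlebotomy and 4.04, 6.12 and 7.19 CPM in controls. Its groups overlapped (log2 fold change -0.23 ± 0.27 SE; adjusted p 0.698 in edgeR). The gene Gm7628, which shares 257 exon bases with Plxnb1, held at most 2 counts a library, and Zan, which shares 33 exon bases with Ephb4, held 9 to 52.

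The contact pair of Efnb2 and Ephb4 differed less between groups than Sema3a or Sema4d. Ephb4 (ENSMUSG00000029710, chr5:137350109-137378669, plus strand), the receptor, had 10.8, 16.7 and 14.3 CPM in phlebotomy 1, 2 and 4, against 17.9, 17.1 and 20.8 CPM in control 1, 2 and 4. The groups did not overlap, but phlebotomy 2 and control 2 were only 0.427 CPM apart (log2 fold change -0.42 ± 0.21 SE, edgeR adjusted p 0.331). Efnb2 (ENSMUSG00000001300, chr8:8617434-8661242, minus strand), its ligand, had 23.1, 29.6 and 21.05 CPM after phlebotomy and 39.8, 24.5 and 21.6 CPM in controls. Control 1 alone stood above the phlebotomy libraries (log2 fold change -0.22 ± 0.23 SE, edgeR adjusted p 0.662), and without it the log2 fold change was 0.080 (adjusted p 0.913). Efnb2, Ephb4 and Plxnd1 are expressed in blood vessels. The 12 endothelial markers, all detected, summed to 636, 791 and 611 CPM in phlebotomy 1, 2 and 4 and to 787, 652 and 751 CPM in control 1, 2 and 4, and the median of their log2 fold changes was -0.21; edgeR called 0 of the 12, and 0 had an unadjusted p under 0.05. The 5 arterial markers summed to 33.5 to 47.5 CPM after phlebotomy and 36.2 to 42.6 CPM in controls. Phlebotomy 2 was the highest phlebotomy library for Efnb2, Ephb4, Plxnd1 and the endothelial sum alike. This was not particular to vessel genes, since it held for Sema3b, Sema4d, Plxna1 and the osteocyte and osteoblast sums as well. The part of endothelial content in the differences of Efnb2, Ephb4 and Plxnd1 was not tested.

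The upstream sequences of Plxnd1 and Ephb4 are shown as examples of genes that were lower without overlap. Both genes lost most of the difference when the GC and length trend was removed. That trend was on the longest transcript and not on upstream bases, and any link of the differences to upstream sequence was not tested. The windows lie at chr6:115995006-115995255 (minus strand) and chr5:137349859-137350108 (plus strand), with the same build, direction and capitals as above.
Plxnd1: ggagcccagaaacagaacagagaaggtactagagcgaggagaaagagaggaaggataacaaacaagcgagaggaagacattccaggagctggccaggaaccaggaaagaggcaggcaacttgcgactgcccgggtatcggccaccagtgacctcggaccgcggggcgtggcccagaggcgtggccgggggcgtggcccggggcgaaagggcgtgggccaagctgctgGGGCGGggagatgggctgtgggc
Ephb4: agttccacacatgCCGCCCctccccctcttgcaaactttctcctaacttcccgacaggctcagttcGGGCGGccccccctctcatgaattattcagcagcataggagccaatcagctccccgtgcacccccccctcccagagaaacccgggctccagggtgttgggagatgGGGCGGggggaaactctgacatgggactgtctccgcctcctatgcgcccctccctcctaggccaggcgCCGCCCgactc
Both windows are richer in GC than that of Sema3a and than the median RefSeq window (52.4%). They have 64.8% with 16 CG dinucleotides for Plxnd1 and 64.0% with 12 for Ephb4. A rich window was not particular to lower genes. Sema3c, which was higher, has 78.4% with 39 CG dinucleotides, and the windows of Sema4d, which was lower, have 52.0% to 55.2%. The Plxnd1 window holds 1 GC box and that of Ephb4 4, and neither holds the TATA, RUNX or hypoxia letters.

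Per kilobase of longest transcript, the order of the 10 genes in control libraries began with Sema4d at 24.8 ± 1.52 CPM per kb (SD, n = 3), the 84.7th percentile of tested genes. Efnb2 (5.98), Sema3b (5.46) and Plxnd1 (5.39) came next and could not be ordered, since each overlapped the next. Ephb4, at 4.29 CPM per kb, lay below Plxnd1 in every control library but overlapped Efnb2 and Sema3b. Below it came Plxna1 (2.31), Sema3e (2.02) and Sema3a (1.99), where again each overlapped the next. Plxnb1 (0.669) and Sema3c (0.205 CPM per kb, the 5.6th percentile) were lowest, each apart from the gene above. In phlebotomy libraries Sema4d was again first, at 16.6 ± 2.93 CPM per kb, and Sema3a took rank 4 in place of rank 8 in controls, at 3.54 ± 0.996 CPM per kb against 1.99 ± 0.0796 (SD, n = 3). Sema3b took rank 6 in place of rank 3. Both moves depend on the length used, since Sema3a has 13868 exon bases against 5930 in its longest transcript, and Sema3b 4777 against 3433. Lengths over all exons of a gene in place of the longest transcript changed the rank of 7 of the 10, so only the ends of the order are firm.

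Ratios of a ligand to a receptor within a library hardly depend on scaling (0.5 was added to counts), and 5 pairs were compared. They still hold the GC and length trend, which was not removed here, and GC content was 40.8% for Sema3a and 57.3% for Plxna1. The log2 ratio of Sema3a to Plxna1 counts was 0.88, -0.023 and 0.81 in phlebotomy 1, 2 and 4, against -1.09, -0.60 and -0.75 in control 1, 2 and 4. Sema3a counts thus exceeded Plxna1 counts in 2 of 3 phlebotomy libraries and in 0 of 3 controls. This crossing depends on length, since the longest transcripts have 5930 bases for Sema3a and 9034 for Plxna1. Per kilobase Sema3a was above Plxna1 in every phlebotomy library, with 2.71 against 1.81 CPM per kb in phlebotomy 2. In control 2 the levels were 2.05 and 2.04 CPM per kb. The difference between the mean log2 ratios of the groups was 1.37 (two-sided exact permutation test, p 0.1, the smallest that 3 against 3 allows, adjusted p 0.167 over the 5 ratios). For Sema3a to its neuropilin Nrp1, whose own level was 55.2 ± 5.65 CPM after phlebotomy and 58.3 ± 1.49 CPM in controls (SD, n = 3), the difference was 0.88 and the groups did not overlap (exact p 0.1, adjusted p 0.167). The Sema4d to Plxnb1 ratio was 3.89, 3.93 and 3.85 in phlebotomy libraries and 4.74, 4.10 and 4.04 in controls, again without overlap (difference -0.40, exact p 0.1, adjusted p 0.167). Without control 1 that difference was -0.18. Sema3e to Plxnd1 and Efnb2 to Ephb4 overlapped between groups, with differences of 0.12 (exact p 1) and 0.25 (exact p 0.6; adjusted p 0.75).

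**Figure D3:**
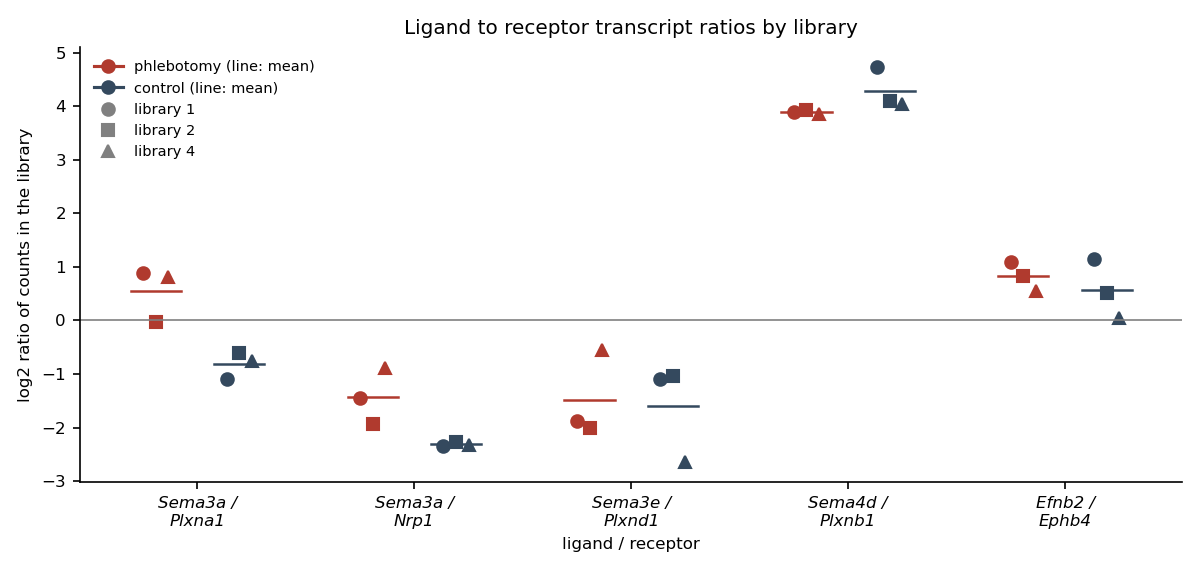
Log2 ratio of ligand counts to receptor counts in each phlebotomy (red, left) and control (blue, right) library for 5 pairs, with the group mean as a line. The Sema3a to Plxna1 ratio lies between -0.023 and 0.88 in phlebotomy libraries and between -1.09 and -0.60 in controls, and the ratios of Sema3e to Plxnd1 and of Efnb2 to Ephb4 overlap between groups.

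The wider families held 125 genes in 9 lists, the 10 genes included, and 120 of them were tested. None passed in edgeR over all 6 libraries, where 36 were lower (all genes 9.42%) and 8 higher (all genes 7.01%) at an unadjusted p under 0.05; with scaling to library size alone these were 22 and 9, and the median of all genes then moved up by 0.14. The lower count was 14 without phlebotomy 1, 22 without phlebotomy 4 and 20 without control 1. Of the 120, 87 had negative log2 fold changes (all genes 50.2%) and the median was -0.25, or -0.15 without phlebotomy 1. With the GC and length trend removed 76 were negative, 20 of them at an unadjusted p under 0.05 in edgeR. The median was then -0.13, beside -0.0066 for all genes. Osteocyte markers were lower as well, 10 of 10 with a median of -0.70 and 9 of them at an unadjusted p under 0.05, although edgeR called 0 after adjustment. They summed to 13873 to 25072 CPM in phlebotomy and 23028 to 49111 CPM in control libraries. Most of that sum was Dmp1, at 18325 CPM on average in phlebotomy and 34363 CPM in control libraries, whose groups overlapped. This direction was not particular to osteocytes. Osteoblast markers were lower in 10 of 10 (median -0.50) and chondrocyte markers in 5 of 5 (median -0.85, 2 of them averaging under 3 CPM). Osteoclast markers were higher in 8 of 8 (median 0.44), and those of monocytes and macrophages in 5 of 5 (median 0.36). The part of any of these markers in the family differences was not tested. DESeq2 called 5 lower (all genes 1.09%) and 1 higher, Sema3a (all genes 0.414%). Without phlebotomy 2 edgeR called 16 lower (all genes 2.99%) and 1 higher (all genes 1.75%). Membrane semaphorins had the lowest median of the 9 lists as counted, at -0.58 with 9 of 13 lower, and 7 of the 13 did not overlap on the lower side (all genes 11.2%). With the GC and length trend removed their median was -0.305, and class 3 semaphorins were lowest at -0.313. Sema5a, a thrombospondin-repeat semaphorin, had the smallest p of any family gene, at 41.0, 58.6 and 38.4 CPM in phlebotomy libraries against 102, 94.2 and 73.0 CPM in controls. All its phlebotomy libraries were below all controls (log2 fold change -0.96 ± 0.20 SE, edgeR adjusted p 0.139, DESeq2 adjusted p 0.00479). Sema7a, anchored to the membrane by a lipid, and Sema4c, a ligand of Plxnb2, had log2 fold changes of -0.76 and -0.80 and did not overlap either.

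Among receptors, 7 of 8 tested plexins had negative log2 fold changes, with a median of -0.31 that was -0.011 once the GC and length trend was removed. Plxnb2, the most abundant plexin per length, averaged 55.5 ± 14.0 CPM in phlebotomy libraries and 82.9 ± 14.9 CPM in controls (SD, n = 3), a log2 fold change of -0.58 with an edgeR adjusted p of 0.216. Nrp2, the neuropilin preferred by Sema3f, had 194, 328 and 332 CPM in phlebotomy and 605, 491 and 349 CPM in control libraries (log2 fold change -0.76, edgeR adjusted p 0.194), while Nrp1 had a log2 fold change of -0.079. Efnb1 averaged 31.2 ± 6.32 CPM after phlebotomy and 48.6 ± 6.03 CPM in controls (SD, n = 3), a log2 fold change of -0.64 whose edgeR adjusted p was 0.178, and 0.0361 without phlebotomy 2. Eph receptors were the single list of the 9 with a positive median (0.24, 7 of 12 higher). Within it, Epha2, Ephb3 and Ephb4 were lower at averages above 3 CPM. At such levels Epha7 and Epha4 were higher (0.45 and 0.21) and Epha3 was near 0 (-0.0071). Epha1 and Ephb1, with log2 fold changes of 1.11 and 1.06, averaged 1.28 and 2.26 CPM even in phlebotomy libraries. Ephb6, which also averaged under 3 CPM, was lower (-0.53). Over all lists, 60% of the 25 family genes averaging under 3 CPM were higher, against 18.9% of the 95 above that level.

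**Figure D4:**
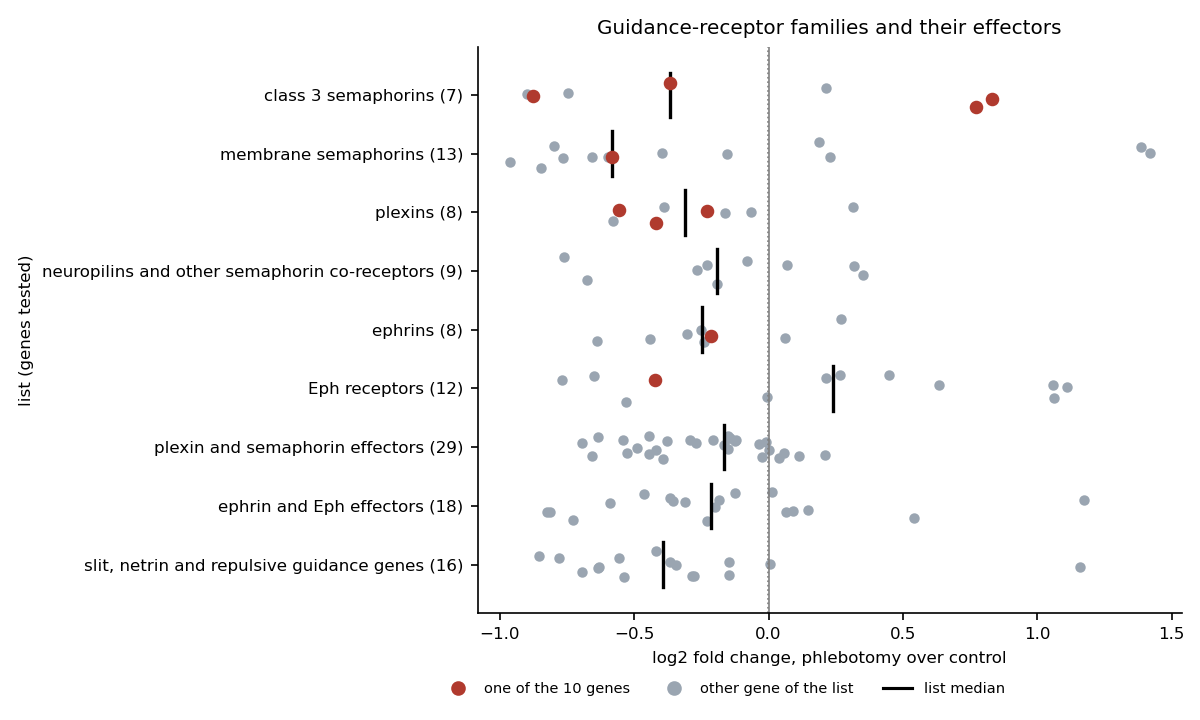
Log2 fold change (phlebotomy over control) of each tested gene in the 9 lists, with the 10 genes in red and the list median as a black line. Medians lie below 0 in every list except the Eph receptors (0.24).

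**Figure D5:**
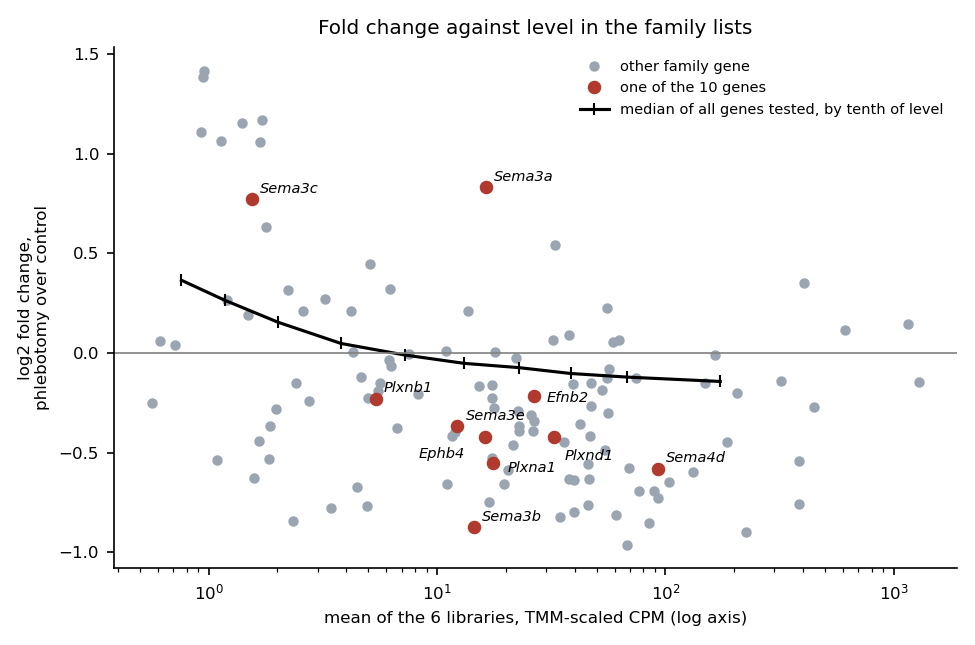
Log2 fold change against the mean TMM-scaled CPM of the 6 libraries (log axis) for the family genes, with the median of all tested genes in 10 groups of level as a line. The line runs from 0.37 at the lowest levels to -0.14 at the highest, Sema3c lies among low genes with positive values, and Sema3a lies well above the line at its level.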

How the data were processed

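RNA of 3 phlebotomy and 3 control femur libraries was compared. Per the labels' protocols, libraries were made with Nextera XT, which does not mark strand, and sequenced in paired-end mode on a HiSeq1500. Per the submitters' processing notes, STAR 2.7.3a and 2.5.2a, DESeq2, edgeR and limma were used with GRCm38.p3 and mm10; the counting program is not given in the sources used here. The authors deposited raw counts per gene, a filtered copy of them (28533 rows) and a signal table of TMM-scaled CPM, each column of which equals the filtered counts times a constant. Rows naming no mouse gene (0.00278% to 0.0284% of counts) were left out.

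Counts were filtered with filterByExpr (minimum count 10), scaled with TMM and tested over all genes in edgeR 4.0.16 (quasi-likelihood; R 4.3.3). P-values were adjusted by Benjamini-Hochberg and called below 0.05, and an SE is the log2 fold change over the root of its F statistic. The fit was tested on simulated data. Same-group libraries differed beyond counting noise. Annotation came from GENCODE M21 (GRCm38), with 99.5% of gene IDs found, and upstream sequences from RefSeq (GRCm38.p6).

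Alternatives were other scalings and filters, DESeq2 1.42.0, limma 3.58.1 (voom, and trend on log2 of the deposited CPM plus a pseudocount of 0.5 or 1), blocking on the replicate number, and dropping each library in turn. The removal of the GC and length trend and the restriction to protein-coding genes were added after seeing the data. Genes named beyond the 10 were up to 4 per list by smallest p, the 2 most abundant per length, and the 2 of most similar pattern for each gene. Cell type markers and further Eph receptors are named where they stand beside a result. The genes and lists were chosen with earlier results of these data known. Plots used matplotlib 3.10.9 (Python 3.11.15).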

Additional observations from a re-analysis of the deposited data

How the results depend on the processing

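All 10 genes kept their direction over the 18 alternatives except Plxnb1 and Efnb2. Plxnb1 had a log2 fold change of 0.097 with the GC and length trend removed, and Efnb2 ran from -0.41 to 0.080 with a library left out. The number of the 10 genes called was 1 without the low-count filter (Sema3b), 1 in DESeq2 (Sema3a) and 0 to 3 with a library left out, the 3 being without phlebotomy 2. Removing the length and GC trend gave the 10 a median of -0.094; what made the trend was not tested. Of the wider families 13 genes were called without the low-count filter, 6 in DESeq2 and 0 to 17 with a library left out. Over all genes edgeR called 3, and this count was 577 without the low-count filter, 20 over the authors' filtered genes, 284 in DESeq2, 0 in limma-voom, 1 among protein-coding genes and 0 (without phlebotomy 1) to 963 (without phlebotomy 2) with a library left out; the cause was not tested. With a library left out the Sema3e to Plxnd1 difference ran from -0.41 to 0.39 and that of Efnb2 to Ephb4 from -0.0051 to 0.54. The level order changed for 7 genes with exon lengths and for 0 to 2 genes with a library left out.

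Libraries with the same number showed no positive correlation of their deviations from the group mean (r across 18838 genes -0.096, -0.10 and -0.058 for numbers 1, 2 and 4). With 3 libraries a group this cannot show whether the numbers pair them by design. With a replicate block edgeR called 0 of the 10 genes and 3 genes in all, with a median of -0.40 for the 10. Depth limited Sema3c, at 9 to 42 counts a library, and Plxnb3, Epha6, Epha8, Dpysl5 and Rgma, which had too few counts to be tested.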

Other observations

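The other guidance families had mostly negative log2 fold changes as well. Of 16 tested slit, netrin and repulsive guidance genes 14 were lower, with a median of -0.39, and 0 passed in edgeR, where 5 were lower (all genes 9.42%) and 1 higher (all genes 7.01%) at an unadjusted p under 0.05. Slit3, a secreted repellent that acts on Robo receptors, had 47.9, 73.2 and 59.7 CPM in phlebotomy 1, 2 and 4, against 130, 104 and 92.5 CPM in control 1, 2 and 4. The groups of Slit3 did not overlap (log2 fold change -0.85 ± 0.19 SE, edgeR adjusted p 0.139, DESeq2 adjusted p 0.0132). Slit2 had log2 fold changes of -0.69 in edgeR (adjusted p 0.160) and -0.68 in DESeq2 (adjusted p 0.0421). Unc5b, a netrin receptor of vessels, averaged 36.3 ± 4.997 CPM after phlebotomy and 56.3 ± 7.93 CPM in controls (SD, n = 3; edgeR adjusted p 0.169).

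Of 29 tested effectors of plexins 24 were lower (median -0.17). Of 18 effectors of ephrins and Eph receptors 12 were lower (median -0.21), and Git1, a scaffold protein, had a log2 fold change of -0.73 ± 0.18 (SE, edgeR adjusted p 0.145).

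The genes whose centred log2 levels over the 6 libraries differed least from those of a given gene among 10367 candidates are named as a description. For Sema3a they were Slc25a12 and Tfrc, the transferrin receptor, with root mean square differences of 0.11 each, and for Sema4d Tfeb (0.037) and Ndst2 (0.054). For Plxna1 they were Lum and Wif1 (0.039 and 0.047), for Plxnd1 Cers4 and Dapk1 (0.026 and 0.028), and for Ephb4 Osbpl11 and Pxn (0.029 and 0.033). Phlebotomy 1 was the lowest library for 5 of the 10 genes and control 1 the highest for 5.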
